A study of Mus musculus with 12 samples.

Results

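The secreted Wnt inhibitors of the heart were followed through the genes Wif1, Sfrp1, Sfrp2, Sfrp4, Sfrp5, Frzb, Dkk2 and Dkk3. All probe sets annotated to 1 of these 8 symbols were taken, and they were ordered by their mean intensity over the 12 arrays. These are 8 of the 18193 genes that a probe set of the array names alone, and 15 of its 45037 probe sets. Sfrp1 had 5 of them, Frzb, Sfrp5 and Dkk3 had 2 each, and the other members had 1 each. The members were selected on earlier results of these arrays, in which their intensities in the 4 groups were known, and Wif1 and Sfrp1 are genes that the study lists from the comparison of genotypes after doxorubicin (DOX). For these genes that comparison is therefore given as a description, without a p-value.

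Hearts came from male C57BL/6J mice aged 8 to 10 weeks in the labels, and total RNA of 12 hearts was hybridised to 12 arrays. There were 3 arrays in each of 4 groups, namely knockout-labelled hearts with DOX, WT hearts with DOX, knockout-labelled hearts without treatment and WT hearts without treatment. DOX, an anthracycline that damages the heart, was given as a single injection of 15 mg/kg in the labels, and hearts were taken on day 5. The study's text gives a higher dose, older mice and saline for the controls. The labels call the altered mice CHIP knockouts, whereas the study's text describes mice that overexpress CHIP, the ubiquitin ligase and cochaperone encoded by Stub1, in the heart only. Neither names the promoter that drives the transgene. Stub1 (1416580_a_at) went against the knockout label. It read 5561 to 8723 in knockout-labelled DOX hearts, against 1930 to 1950 in WT DOX hearts, and 8762 to 9817 in untreated knockout-labelled hearts, against 1790 to 1857 in untreated WT hearts. The log2 difference was 1.89 after DOX (limma, adjusted p = 9.9e-04) and 2.34 without DOX (adjusted p = 2.2e-04), while the second Stub1 probe set (1434412_x_at) differed by -0.08 and -0.04. The label is kept below only as "knockout-labelled".

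Wnt ligands bind a Frizzled receptor together with LRP5 or LRP6 and stabilise β-catenin, which acts with TCF/LEF factors on target genes. Secreted inhibitors stop this outside the cell. The SFRP proteins, of which Frzb is one, carry a cysteine-rich domain like that of Frizzled and bind Wnt ligands. WIF1 also binds the ligands, through a domain of its own, and DKK2 binds LRP5 and LRP6 instead. In the adult heart Wnt signalling is known to be low and to return after injury, and several of these inhibitors are made by fibroblasts.

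No member passed the test in any comparison, and the widest group differences belonged to Wif1, Sfrp1, Sfrp2 and Dkk3. Each probe set was fitted as log2(intensity + 32) in limma with the 4 group means, and a call is a Benjamini-Hochberg adjusted p under 0.05 over all 45037 probe sets. After DOX, 0 of 15 member probe sets were called between knockout-labelled and WT hearts, where 0.941% of all probe sets were, and this count too is a description. Without DOX, 0 of 15 were called between genotypes, against 1.81% of all. For DOX against no DOX, 0 of 15 were called in knockout-labelled hearts (2.2% of all) and 0 of 15 in WT hearts (3.06% of all). The difference between the 2 DOX responses gave 0 of 15 calls and 0 calls over all probe sets. At an unadjusted p under 0.05 limma gave 1, 2, 0, 4 and 0 member probe sets in these 5 comparisons, against 15.5%, 14.1%, 16.2%, 18.8% and 8.69% of all. The methods' test without adjustment gave 3 member probe sets between genotypes after DOX (11.8% of all), of Wif1, Sfrp1 and Dkk3, from which nothing is read because Wif1 and Sfrp1 were listed from that comparison. It gave 0 without DOX (11% of all), 0 for DOX in knockout-labelled hearts (11.9% of all) and 3 for DOX in WT hearts (15% of all). After Benjamini-Hochberg adjustment the methods' test gave 0 members in each of these 4 comparisons, where the shares over all probe sets were 0%, 0.00666%, 0% and 0.00888%.

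Since the members were chosen with these intensities known, and 6 of their 15 probe sets belong to Wif1 and Sfrp1, their signs are a description only. After DOX, 14 of 15 member probe sets had a log2 difference above 0 between knockout-labelled and WT hearts, with a median of 0.11, whereas 54.8% of all probe sets were above 0, with a median of 0.01. Under DOX in WT hearts, 4 of 15 were above 0 (46% of all), with a median of -0.15 against -0.01 over all probe sets. Under DOX in knockout-labelled hearts, 4 of 15 were above 0 (55.5% of all), with a median of -0.09 against 0.01. Without DOX, 9 of 15 were above 0 between genotypes (47.2% of all), with a median of 0.03. The difference between the 2 DOX responses was above 0 in 10 of 15 (54.2% of all), with a median of 0.02. The 2 genotype comparisons and the 2 DOX comparisons share arrays, so these counts are not separate evidence, and several probe sets read the same transcript. The plot of differences with their intervals shows that most intervals of the members included 0.

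**Figure D1:**
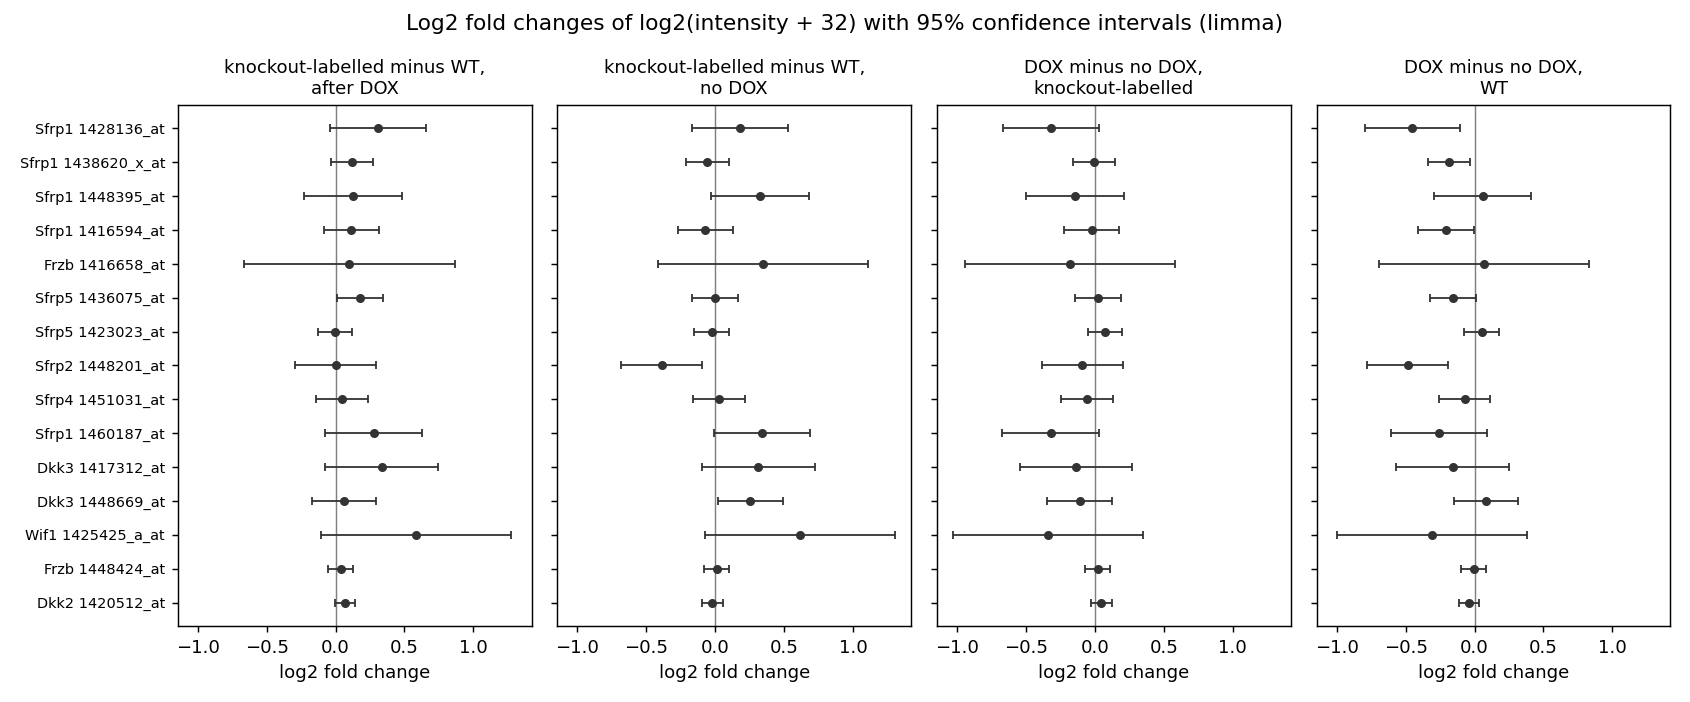
Log2 differences of the 15 member probe sets in 4 comparisons, with 95% confidence intervals from limma (3 arrays per group). Points right of 0 were higher in the group named first, 14 of 15 lay there between genotypes after DOX and 4 of 15 for DOX in WT hearts, and none was called.

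Sfrp1, which binds Wnt ligands, had lower means after DOX in both genotypes, without a call and with group ranges that did not overlap within a genotype. The brightest probe set (1428136_at) read 159, 195 and 185 in knockout-labelled DOX hearts, against 167, 115 and 137 in WT DOX hearts. It read 212, 200 and 292 in untreated knockout-labelled hearts, against 234, 168 and 205 in untreated WT hearts. All DOX hearts of a genotype lay below all its untreated hearts, while the genotypes overlapped both with and without DOX. The DOX difference was -0.32 in knockout-labelled hearts (SE 0.16, adjusted p = 0.352) and -0.45 in WT hearts (SE 0.16, adjusted p = 0.151), and the 2 responses differed by 0.13 (SE 0.22, adjusted p = 0.900). Without replicate 3 of the untreated knockout-labelled hearts, which read 292, the difference in knockout-labelled hearts was -0.17 (adjusted p = 0.703). On group means the order ran from high to low through untreated knockout-labelled (235 ± 50.1), untreated WT (202 ± 32.9), knockout-labelled DOX (180 ± 18.4) and WT DOX hearts (140 ± 26.1; SD, n = 3 each), and each neighbour in that order overlapped the next. The difference between genotypes after DOX was 0.31 (SE 0.16).

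The other Sfrp1 probe sets did not all follow. Under DOX in WT hearts, 1438620_x_at, 1416594_at and 1460187_at had differences of -0.19, -0.21 and -0.26, and 1448395_at had 0.06. Under DOX in knockout-labelled hearts, 1460187_at stood at -0.32, 1448395_at at -0.14, and the other 2 at -0.01 and -0.02. Their lowest adjusted p was 0.177, for 1438620_x_at under DOX in WT hearts. On the array, 3 of these probe sets (1448395_at, 1416594_at and 1460187_at) were designed on the same accession and are no separate measurements of the gene.

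Sfrp2, another Wnt-binding member of the SFRP family, came closest to a call. It (1448201_at) read 22.9, 31.4 and 29.1 in knockout-labelled DOX hearts, against 24.2, 28.3 and 30.5 in WT DOX hearts. Without DOX it read 22.4, 27.7 and 47.5 in knockout-labelled hearts, against 51.1, 42.9 and 60.9 in WT hearts. The 3 untreated WT hearts lay above all DOX hearts of both genotypes, and 1 untreated knockout-labelled heart reached into their range. Under DOX in WT hearts the difference was -0.48 (SE 0.13, 95% interval -0.78 to -0.19, adjusted p = 0.080). Over 24 alternative settings that adjusted p ranged between 0.022 and 0.240. Without DOX, knockout-labelled minus WT hearts differed by -0.39 (SE 0.13, adjusted p = 0.194). The DOX difference in knockout-labelled hearts was -0.09 (SE 0.13), and the 2 DOX responses differed by 0.39 (SE 0.19, adjusted p = 0.590), so a difference between the genotypes' responses was not detected.

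Frzb, also called sFRP3, varied widely between hearts and overlapped in all groups. Probe set 1416658_at read 85.1, 88.2 and 72.7 in knockout-labelled DOX hearts, against 130, 55.6 and 52.6 in WT DOX hearts. The untreated knockout-labelled hearts read 85.0, 52.2 and 185, against 76.9, 86.0 and 48.9 in untreated WT hearts. The highest value of the 12, 185, and one of the lowest, 52.2, came from the same untreated group. The adjusted p was 0.77 or above in the genotype and DOX comparisons. The second probe set (1448424_at), on the same accession, stayed between 7.71 and 11.1 over the 12 arrays.

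Sfrp5, known in mice as a fat-derived antagonist of Wnt5a, had its lowest group mean in WT DOX hearts. Its brightest probe set (1436075_at) read 45.4, 56.5 and 47.2 in knockout-labelled DOX hearts, against 44.6, 34.8 and 41.5 in WT DOX hearts. Without DOX it read 41.0, 49.1 and 55.4 in knockout-labelled hearts, against 48.7, 49.0 and 47.2 in WT hearts. WT DOX hearts overlapped neither knockout-labelled DOX hearts nor untreated WT hearts. The genotype difference after DOX was 0.18 (SE 0.07), and the DOX difference in WT hearts was -0.15 (SE 0.07, adjusted p = 0.310). The second probe set (1423023_at) differed by -0.01 and 0.05 in the same 2 comparisons. The adipocyte markers Adipoq, Cidec and Lep averaged 11.0, 7.43 and 8.06 over the 12 arrays, near the lowest intensity in the table.

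Sfrp4, a further Wnt-binding SFRP, was even across the groups. Its probe set (1451031_at) read 30.1, 33.7 and 31.0 in knockout-labelled DOX hearts, against 30.9, 25.4 and 32.8 in WT DOX hearts. Without DOX it read 27.9, 41.5 and 33.6 in knockout-labelled hearts, against 27.4, 39.3 and 32.2 in WT hearts. All groups overlapped, and the 95% intervals of the 4 differences stayed between -0.26 and 0.23.

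Wif1, Dkk3 and Dkk2 had means under 32. Wif1 and Dkk3 are given by array although the rule for named probe sets did not ask for it, so they were chosen after their values were seen. Wif1 (1425425_a_at) read 32.9, 28.3 and 16.3 in knockout-labelled DOX hearts, against 5.24, 7.03 and 6.49 in WT DOX hearts. Without DOX it read 51.1, 7.75 and 83.8 in knockout-labelled hearts, against 20.5, 14.7 and 11.3 in WT hearts. WT DOX hearts lay below every other heart, and the untreated knockout-labelled hearts held both the highest values and 1 value near those of WT DOX hearts. The WT DOX values lay near the lowest intensity in the table, 3.28, and without detection calls they could not be told from background, so no ratio is given. On the log2(intensity + 32) scale, which understates changes of dim probe sets, the difference between genotypes after DOX was 0.59 (SE 0.31). Under DOX the difference was -0.34 in knockout-labelled hearts (SE 0.31, adjusted p = 0.687) and -0.31 in WT hearts (SE 0.31, adjusted p = 0.671), where the groups did not overlap. As for every member, the SE pools the 4 groups and is not the spread of the groups compared. The SD of the Wif1 intensity was 0.917 in WT DOX and 4.67 in untreated WT hearts, against 38.1 in untreated knockout-labelled hearts. Without DOX the genotypes differed by 0.62 (SE 0.31, adjusted p = 0.424), with overlapping groups.

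Dkk3 is the divergent member of the Dickkopf family, and whether it acts on Wnt signalling depends on the cell. Its brighter probe set (1417312_at) read 35.1, 30.5 and 23.8 in knockout-labelled DOX hearts, against 19.0, 16.2 and 15.6 in WT DOX hearts. Untreated hearts read 32.8, 18.6 and 63.3 in the knockout-labelled group, against 19.9, 21.6 and 26.4 in WT. The genotypes did not overlap after DOX, and nor did DOX and untreated hearts in WT. The genotype difference was 0.33 after DOX (SE 0.18) and 0.31 without DOX (SE 0.18, adjusted p = 0.522), and the DOX difference in WT hearts was -0.16 (SE 0.18). The second probe set (1448669_at), on the same accession, gave 0.06 after DOX and 0.26 without DOX (SE 0.10, adjusted p = 0.296), where its groups did not overlap. Dkk2, which binds LRP5 and LRP6, lay between 5.22 and 9.56 on all 12 arrays, and its 4 differences lay between -0.04 and 0.07.

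**Figure D2:**
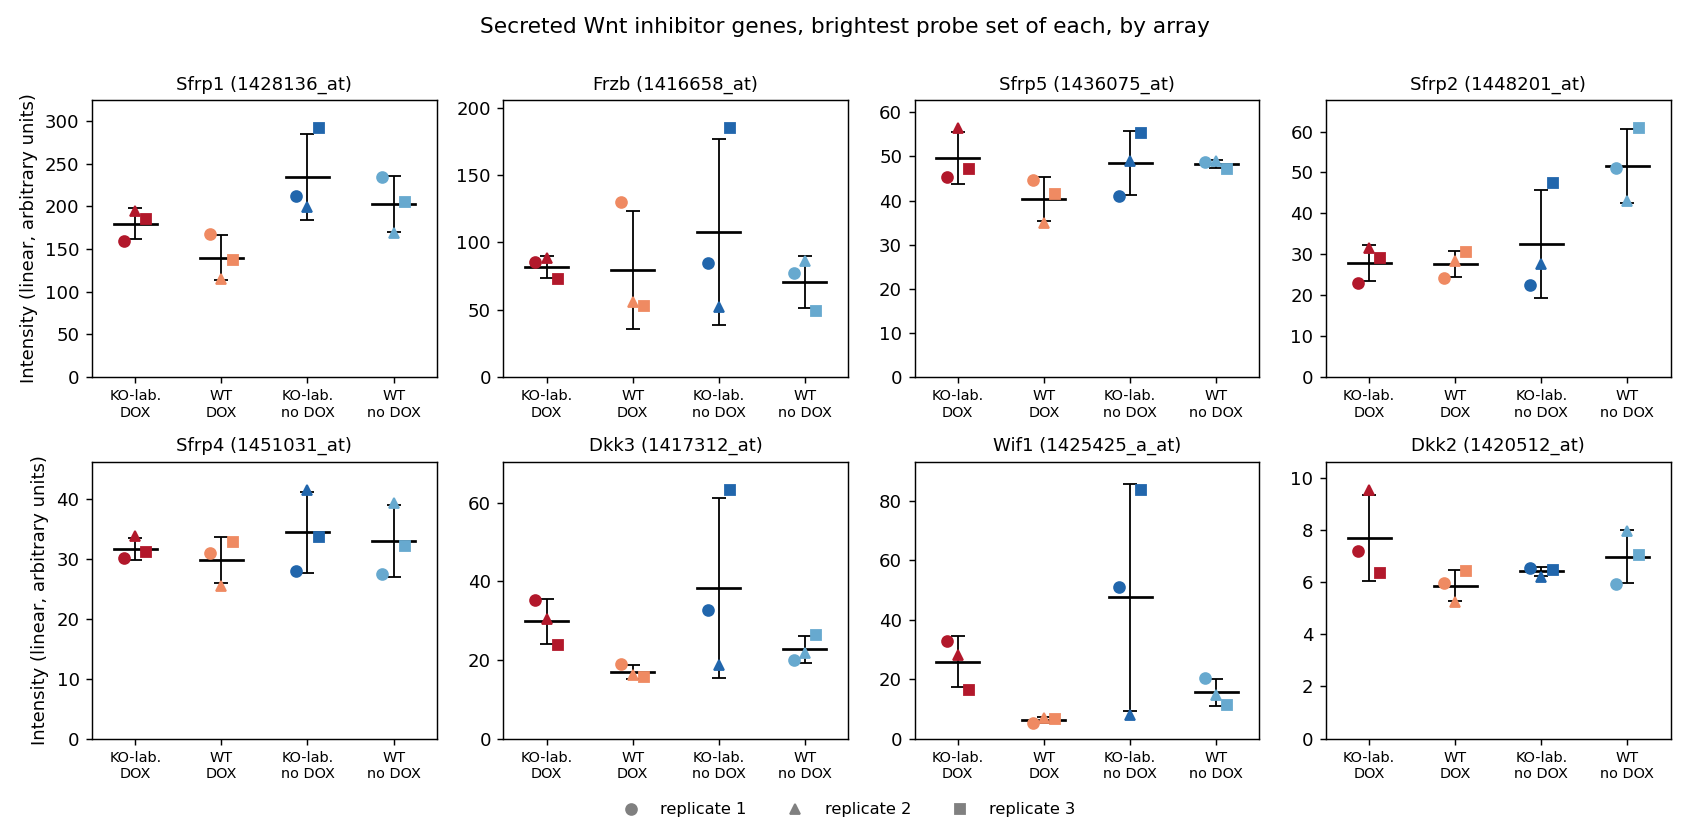
Intensity (linear scale) of the brightest probe set of each member in the 12 hearts, with the group mean (line) and SD (bars, n = 3) and a marker shape for each replicate number. Wif1 read 5.24 to 7.03 in WT DOX hearts, against 16.3 to 32.9 in knockout-labelled DOX hearts, and Sfrp2 was highest in untreated WT hearts.

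Counts of groups without overlap are a description only, since the members were chosen with these intensities known. Wif1 and Sfrp1 were listed from the first comparison, several probe sets read the same gene, and the comparisons share arrays. Counted over probe sets, 4 of 15 were higher in every knockout-labelled DOX heart than in any WT DOX heart (11.2% of all probe sets). They were Wif1, Sfrp5 1436075_at, Dkk3 1417312_at and Sfrp1 1460187_at, and 0 of 15 were lower (9.13% of all). Without DOX, 2 of 15 were higher in knockout-labelled hearts (8.7% of all), namely Sfrp1 1448395_at and Dkk3 1448669_at, and 0 of 15 were lower (10.7% of all). Under DOX in WT hearts, 6 of 15 were lower without overlap (12.8% of all) and 0 were higher (11.6% of all). Those 6 were Wif1, Sfrp2, Sfrp5 1436075_at, Dkk3 1417312_at and Sfrp1 1428136_at and 1438620_x_at. Under DOX in knockout-labelled hearts, 2 of 15 were lower (9.59% of all), both of Sfrp1, and 0 were higher (11.1% of all).

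A single array held many of the highest values. Replicate 3 of the untreated knockout-labelled hearts was the highest of the 12 arrays in 8 of 15 member probe sets, of Sfrp1, Frzb, Dkk3 and Wif1, and in 11.3% of all probe sets. Replicate 2 of WT DOX was the lowest in 6 of 15, and in 15.3% of all. The same untreated knockout-labelled array stood apart in genes expressed mainly in the atria, which were picked after their values were seen. Myl7 read 125 there and 19.2 to 37.0 on the other 11 arrays, Myl4 read 516 and 32.4 to 116, and Sln read 82.9 and 8.35 to 18.6. Without that array the genotype difference without DOX was 0.03 for Sfrp1, -0.03 for Frzb, 0.07 for Dkk3 and 0.28 for Wif1. For Sfrp2 it was -0.55, with an adjusted p of 0.046 (0.194 on all arrays, 0.046 to 0.551 over 24 settings). The Sfrp2 difference for DOX in WT hearts was then the same, -0.48, with an adjusted p of 0.022. Under DOX in knockout-labelled hearts the differences without it were -0.17 for Sfrp1, 0.20 for Frzb, 0.07 for Sfrp2, 0.11 for Dkk3 and -0.0022 for Wif1, against -0.32, -0.18, -0.09, -0.14 and -0.34 on all arrays. Without replicate 2 of the same group, which held the low Wif1 value, Wif1 differed by 1.05 between genotypes without DOX. The adjusted p was then 0.017, against 0.424 on all arrays (0.017 to 0.838 over 23 settings). Under DOX in knockout-labelled hearts Wif1 then differed by -0.77 (adjusted p = 0.045, 0.687 on all arrays, 0.045 to 0.999 over 23 settings). Both arrays were singled out by the members' own values, so these smaller p-values are a description and no support for a difference.

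**Figure D3:**
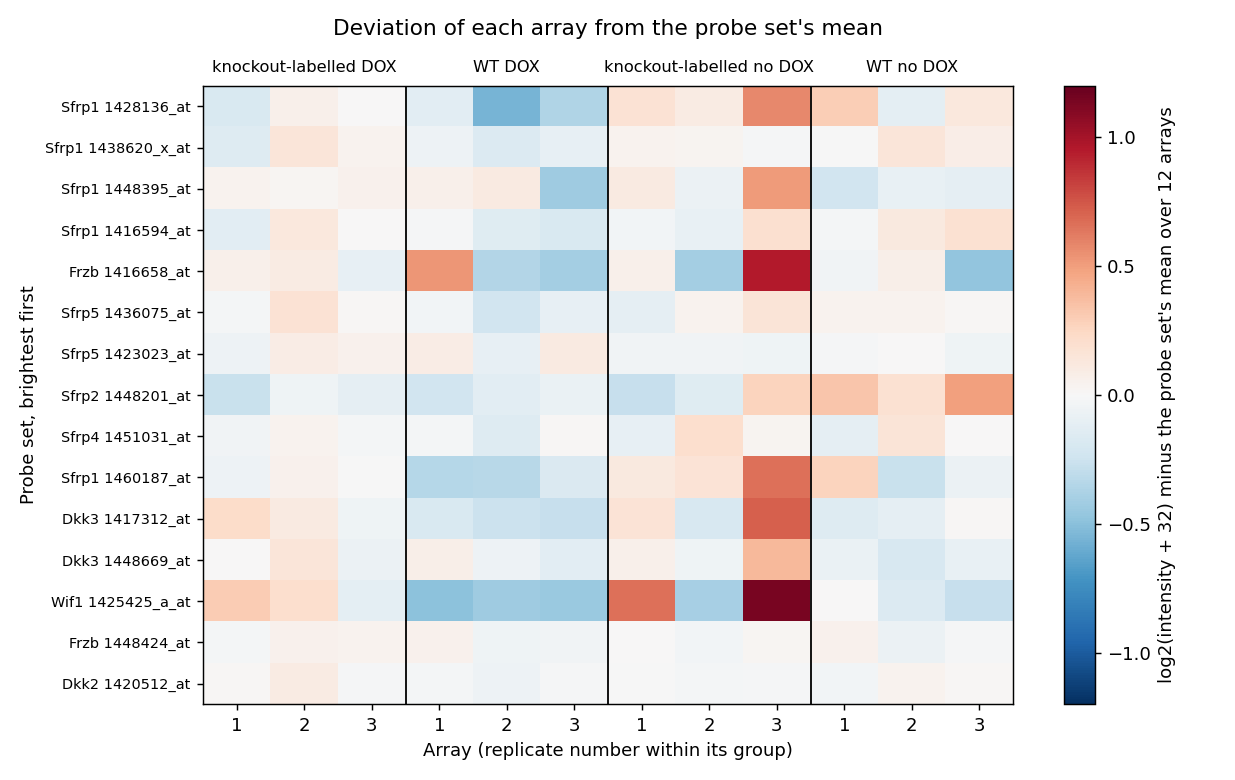
Deviation of each array from the probe set's mean over the 12 arrays, on the log2(intensity + 32) scale, for the 15 member probe sets (rows, brightest first) and the 12 arrays (columns, by group). Replicate 3 of the untreated knockout-labelled group was the highest array in 8 of 15 rows.

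Fibroblast markers differed between the groups as well. The sum over 8 fibroblast markers was 11906 to 12822 in knockout-labelled DOX hearts, against 9790 to 11011 in WT DOX hearts, and 12978 to 18856 in untreated knockout-labelled hearts, against 11174 to 13389 in untreated WT hearts. The sum was 1.48 times the mean array in replicate 3 of the untreated knockout-labelled group. It weighs bright markers most, above all Dcn, which averaged 8100 over the 12 arrays and differed by 0.05 between genotypes after DOX (limma, adjusted p = 0.919). All 8 markers had differences above 0 between genotypes after DOX (54.8% of all probe sets, median of the markers 0.34) and without DOX (47.2% of all, median 0.36). In each, 1 was called, Lum (1.17, adjusted p = 0.020) and Col1a1 (1.13, adjusted p = 0.048), where 0.941% and 1.81% of all were called. Under DOX, 0 of 8 were above 0 in knockout-labelled hearts (55.5% of all probe sets), with a median of -0.59 and Lum and Col1a1 called lower. In WT hearts 1 of 8 was above 0 (46% of all), with a median of -0.50 and Lum and Dpt called lower. Of all probe sets, 2.2% and 3.06% were called under DOX in these 2 genotypes. After DOX the Lum call between genotypes held in 18 of 24 alternative settings and ended without any of 4 arrays, and without DOX the Col1a1 call held in 9 of 24, ended without any of 10 arrays and was lost with the replicate block. Under DOX, Lum held in 22 of 24 settings in knockout-labelled hearts and 23 of 24 in WT hearts, Col1a1 in 16 of 24, and Dpt in 12 of 24, ending without any of 10 arrays. The sum over 6 mural markers was 11120 to 12543 in knockout-labelled DOX hearts, against 11225 to 12476 in WT DOX hearts, and 15786 to 21251 in untreated knockout-labelled hearts, against 10699 to 12122 in untreated WT hearts. The untreated mural sums differed mostly through Acta2, which read 6289 to 13040 in knockout-labelled hearts, against 1283 to 1934 in WT hearts. Of the 6 mural markers, 2 were above 0 between genotypes after DOX (54.8% of all probe sets, median of the markers -0.22) and 5 without DOX (47.2% of all, median 0.26). Acta2 was called higher between untreated genotypes (2.41), and Acta2 and Cspg4 were called lower under DOX in knockout-labelled hearts. Without replicate 3 of the untreated knockout-labelled hearts the DOX calls of Col1a1, Acta2 and Cspg4 in knockout-labelled hearts ended (adjusted p = 0.080, 0.059 and 0.094). That array was not alone in this. In all, the Col1a1 call ended without any of 6 arrays, the Acta2 call without any of 4 and the Cspg4 call without any of 6. Over 24 alternative settings this Acta2 call held in 18 and the Cspg4 call in 13. Macrophage markers had medians of 0.25 between genotypes after DOX and 0.05 without DOX. Under DOX their medians were -0.26 in knockout-labelled hearts and -0.55 in WT hearts, with 2 of 6 called lower in WT hearts (3.06% of all probe sets were called) and 0 in the other comparisons. The cardiomyocyte, endothelial, epicardial, Schwann, adipocyte and erythroid lists had 1 call lower under DOX in knockout-labelled hearts (cardiomyocyte), 1 lower under DOX in WT hearts (erythroid) and 0 elsewhere. The sum over 2 erythroid markers was 24.2 to 42.3 in WT DOX hearts, against 185 to 987 in untreated WT hearts. In knockout-labelled hearts it was 28.4 to 40.6 with DOX, against 66.1 to 314 without. The erythroid medians under DOX were -1.61 in WT and -0.82 in knockout-labelled hearts. The part of these cells in the members' levels was not tested, and in whole hearts fewer cells of a type and less RNA per cell cannot be told apart.

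Promoter sequence was at hand for 5 of the 8 members in RefSeq (GRCm38.p6). The 250 bases before the start are shown for Wif1, whose WT DOX hearts lay below every other heart, for Sfrp2, which came closest to a call, and for Frzb, which held a TCF/LEF core. They lie at chr10:121033754-121034003 (plus strand), chr3:83766071-83766320 (plus strand) and chr2:80447397-80447646 (minus strand), and each is written 5′ to 3′ along its gene. Capitals mark a match to CTTTGA or CTTTGT on either strand.
Wif1: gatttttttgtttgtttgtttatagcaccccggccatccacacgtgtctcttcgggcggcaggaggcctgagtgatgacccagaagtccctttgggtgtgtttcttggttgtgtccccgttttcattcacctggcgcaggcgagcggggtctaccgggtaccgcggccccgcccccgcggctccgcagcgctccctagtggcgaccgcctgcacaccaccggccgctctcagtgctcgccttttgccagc
Sfrp2: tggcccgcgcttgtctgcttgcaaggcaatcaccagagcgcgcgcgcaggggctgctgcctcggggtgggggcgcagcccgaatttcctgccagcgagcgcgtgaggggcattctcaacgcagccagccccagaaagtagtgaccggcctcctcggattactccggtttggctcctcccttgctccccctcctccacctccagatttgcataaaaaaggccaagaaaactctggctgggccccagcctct
Frzb: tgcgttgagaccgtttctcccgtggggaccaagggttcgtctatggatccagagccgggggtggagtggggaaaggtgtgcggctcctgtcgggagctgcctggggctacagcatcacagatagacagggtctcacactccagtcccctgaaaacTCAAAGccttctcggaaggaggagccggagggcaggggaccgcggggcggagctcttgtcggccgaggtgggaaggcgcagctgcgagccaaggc
The Frzb match was CTTTGA on the opposite strand, 95 bases before the start. Dkk2 had 1 match, of CTTTGT, and no match lay in these windows of Wif1, Sfrp2 and Sfrp5. Of 32851 promoter entries of the same length, 27.6% held a match. The G and C content was 62.8% for Wif1, 63.6% for Sfrp2 and 64.4% for Frzb, against a median of 52.4% over all entries. A match of letters is a description and no evidence of binding.

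The rest of the Wnt pathway showed few calls. Over all probe sets, 0.941% were called between genotypes after DOX and 1.81% without DOX. Under DOX, 2.2% of all were called in knockout-labelled hearts and 3.06% in WT hearts. Among 10 secreted inhibitors that are not members, 1 was called, Notum, an enzyme that removes the lipid of Wnt ligands, which fell by 0.12 under DOX in WT hearts (SE 0.02, adjusted p = 0.039) at a mean intensity of 19.3. Among 19 ligands, Wnt5a, a ligand that mostly acts without β-catenin, fell under DOX in knockout-labelled hearts by 0.56 (SE 0.10, adjusted p = 0.030). It read 30.2, 30.1 and 33.5 in knockout-labelled DOX hearts, against 69.3, 68.4 and 47.0 in untreated knockout-labelled hearts. In WT hearts the Wnt5a difference under DOX was -0.44 (adjusted p = 0.053). The Notum call held in 11 of 23 alternative settings and ended without any of 8 arrays, and the Wnt5a call held in 16 of 24 and ended without any of 5.

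Of 19 receptors and coreceptors measured, 1 was called higher in each genotype comparison, where 0.941% (after DOX) and 1.81% (without DOX) of all probe sets were called. Fzd7 read 151, 147 and 146 in knockout-labelled DOX hearts, against 121, 100.1 and 99.99 in WT DOX hearts, a difference of 0.37 (SE 0.06, adjusted p = 0.032). Fzd1 read 193, 207 and 246 in untreated knockout-labelled hearts, against 160, 135 and 138 in untreated WT hearts, a difference of 0.48 (SE 0.10, adjusted p = 0.044). Both are Wnt receptors, and neither pair of groups overlapped. Each was also higher, without a call, in the other genotype comparison. Fzd1 differed by 0.37 after DOX (adjusted p = 0.112) and Fzd7 by 0.21 without DOX (adjusted p = 0.124). The DOX responses of the genotypes differed by -0.11 for Fzd1 (adjusted p = 0.847) and 0.16 for Fzd7 (adjusted p = 0.632). Of 14 feedback and target genes measured, Ccnd1, which encodes cyclin D1, fell by 0.94 under DOX in knockout-labelled hearts (SE 0.20, adjusted p = 0.049), and Notum, which is in this list too, was the other call. In WT hearts the Ccnd1 difference under DOX was -0.59 (adjusted p = 0.147). The calls of Fzd7, Fzd1 and Ccnd1 held in 14, 11 and 10 of 24 alternative settings, and ended when any of 6, 10 and 9 single arrays was left out. None of the 4 R-spondins, which enhance Wnt signalling, and none of the 18 intracellular components measured was called in these 4 comparisons. The smallest p among the R-spondins belonged to Rspo1 (0.39 under DOX in knockout-labelled hearts, adjusted p = 0.143) and Rspo2 (0.13 between genotypes after DOX, adjusted p = 0.243). Among the intracellular components they belonged to Wls, which carries Wnt ligands to the cell surface (0.45 between untreated genotypes, adjusted p = 0.066), and the kinase Gsk3a (-0.20 between untreated genotypes, adjusted p = 0.108). The plot of the pathway lists sets these genes beside the members.

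**Figure D4:**
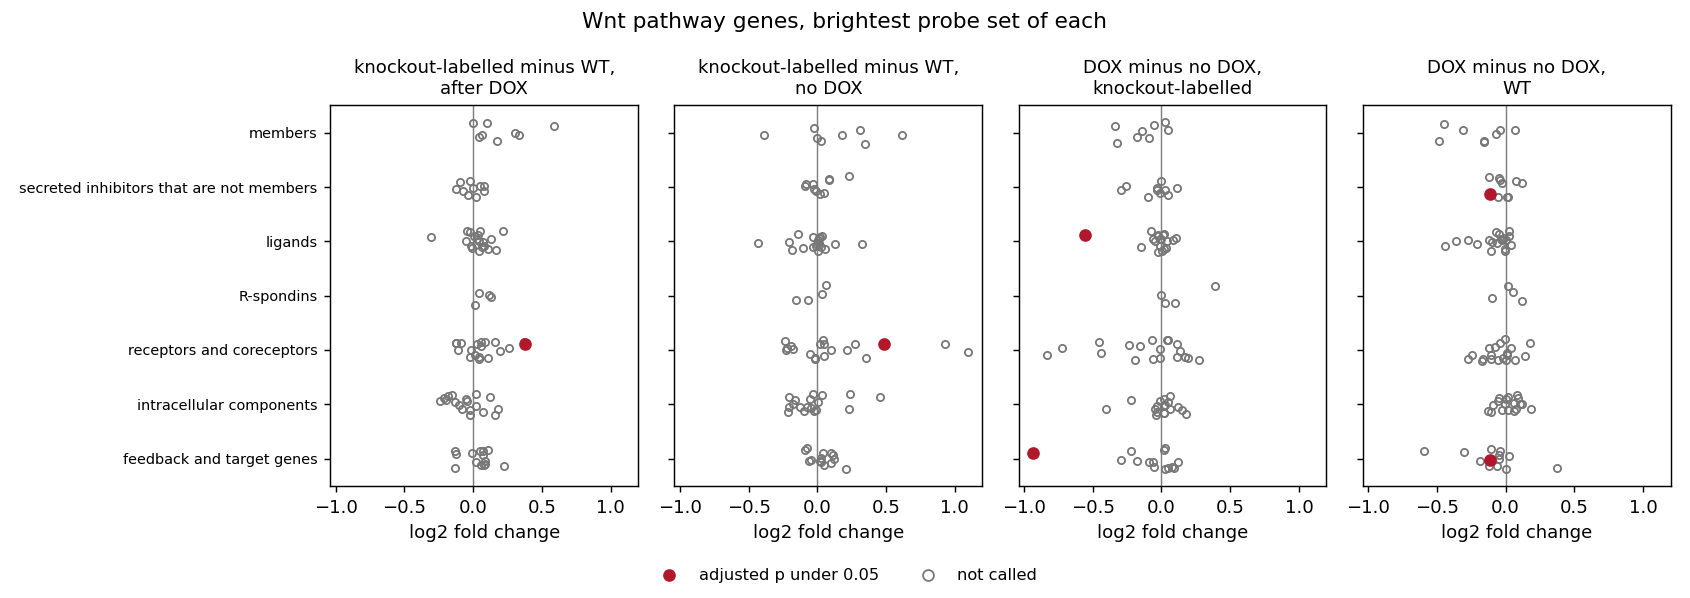
Log2 differences (limma, log2(intensity + 32)) of the brightest probe set of each Wnt pathway gene, by list, in 4 comparisons, with filled points for adjusted p under 0.05. Filled points are Fzd7, Fzd1, Wnt5a, Ccnd1 and Notum (in 2 lists), and no member is filled.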

How the data were processed

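RNA of 12 mouse hearts was measured on Affymetrix mouse expression arrays, 1 array per heart and 3 per group. The authors deposited 1 table of intensities, normalised with Affymetrix Expression Console and on a linear scale, with 45037 probe sets and array medians between 28.9 and 30.4. The table held no detection calls, so dim probe sets could not be told from background, and the number of arrays limits the precision. Genes were named from the platform annotation, in which 34945 probe sets name 1 gene and 0 name a member among several. No other per-sample column was left out.

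Values were tested as log2(intensity + 32) with limma 3.58.1 (R 4.3.3) in 1 model of 4 group means, two-sided, with Benjamini-Hochberg adjustment over all probe sets and a threshold of 0.05. The script was tested on simulated data. The labels call the replicates biological, and p-values measure the spread between these hearts. The methods' test (a two-sample test with equal variances for each probe set), other added constants (1, 8 and 128), normalisations, filters, variance models, a replicate block and leaving out each array were alternatives. Figures were drawn with matplotlib.

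The members, the Wnt pathway lists and the cell type markers were chosen with earlier results of these data known. Values of every array were to be given for the brightest probe set of each member with a mean of at least 32 and for any other called member probe set. From each pathway list all called genes (4 at most) or otherwise the 2 with the smallest p were to be named. Neighbours by pattern were the 3 genes with the smallest mean absolute difference from a member's centred values over the 12 arrays, for members whose group means span at least 1. No fold change or p-value computed by the study was used.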

Additional observations from a re-analysis of the deposited data

How the results depend on the processing

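The count of member probe sets called at adjusted p under 0.05 was 0 in all 5 comparisons, and most of 25 alternatives left it there. For DOX in WT hearts it was 1 with intensity + 1, with only probe sets of mean 32 or above tested, with trended and robust variance, with array weights and with the replicate block. The called probe set was Sfrp2 each time, and the cause was not tested. The methods' test without adjustment gave 3 between genotypes after DOX, of Wif1, Sfrp1 and Dkk3, a comparison from which Wif1 and Sfrp1 were listed, and 3 for DOX in WT hearts. Leaving out each array in turn gave 0 to 1 between genotypes without DOX (Wif1 or Sfrp2), 0 to 1 for DOX in knockout-labelled hearts (Wif1), 0 to 1 for DOX in WT hearts (Sfrp2), and 0 in the other comparisons. Over all probe sets, restricting the test to means of 32 or above gave 739, 1375, 1707 and 2283 calls in the 4 pairwise comparisons, against 424, 817, 990 and 1379.

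Of 929 log2 differences of the members under the alternatives, 36 moved by the residual SD or more and 49 changed sign. Many of the 929 could not move, so these counts do not measure stability. The filters, trended and robust variance, replicate block and methods' test leave a difference as it is, and so does leaving out an array outside the comparison. Array weights can change it, as for Sfrp2 under DOX in WT hearts (-0.51, against -0.48). Among the 13 differences of 0.3 or more in size, 1 changed sign, that of Frzb between genotypes without DOX (0.35, and -0.03 without replicate 3 of the untreated knockout-labelled group). Replicate numbers showed no clear pairing of the arrays. Same-numbered arrays of different groups correlated at -0.25 to 0.15 in their deviations (18 pairs), against -0.29 to 0.28 for other-numbered arrays of different groups (36 pairs). Of the 12 arrays, 5 correlated best with their own number. These ranges do not exclude a smaller effect of the replicate number. With the replicate block, Sfrp2 for DOX in WT hearts had an adjusted p of 0.049, and all other member calls stayed at 0.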

Other observations

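The rule for neighbours by pattern asked for group means spanning at least 1 on the log2(intensity + 32) scale, and no member reached it. With a span of at least 0.4, chosen after seeing the data, Wif1, Sfrp1, Sfrp2 and Dkk3 qualified. The likeness is the mean absolute difference of centred log2 values over the 12 arrays, where smaller is more alike. For Sfrp1 it was smallest for Naalad2 (0.08), Mxra8 (0.09) and Itsn1 (0.09), against a median of 0.23 over all probe sets. Sfrp2 lay closest to Pcdh19 (0.09), Pltp (0.09) and Wdr1 (0.11), against a median of 0.22. Dkk3 lay closest to Sh3d19 (0.07), Lpar1 (0.07) and Nus1 (0.08), against a median of 0.21. Wif1 had Timp2 (0.16), Pla1a (0.17) and Gusb (0.17) nearest, against a median of 0.39. These neighbours share the 12 arrays with the members, and no test was run on them.

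Other Wnt receptors had wide differences without a call. Fzd2 read 78.0, 83.0 and 196 in untreated knockout-labelled hearts, against 47.6, 39.1 and 42.0 in untreated WT hearts, a difference of 0.93 (SE 0.23, adjusted p = 0.077). Between the same groups Lgr6, an R-spondin receptor, differed by 1.10 (SE 0.39, adjusted p = 0.223). Lgr6 passed the threshold in 1 of 24 alternative settings, without replicate 3 of WT DOX (adjusted p = 0.039), an array outside this comparison. Under DOX in knockout-labelled hearts Fzd2 differed by -0.83 (SE 0.23, adjusted p = 0.097). Without replicate 3 of the untreated knockout-labelled hearts, which read 196, the Fzd2 differences were 0.59 between untreated genotypes and -0.49 under DOX (adjusted p = 0.019 and 0.028). That array was singled out by its value, so these p-values are a description only. Over 24 alternative settings Fzd2 passed the threshold in 4 between untreated genotypes and in 3 under DOX. Fzd2 and Lgr6 were named after their values were seen, and other receptors went the other way. Between untreated genotypes Fzd9 differed by -0.23 (limma, adjusted p = 0.056), Fzd5 by -0.24 (adjusted p = 0.142) and Fzd6 by -0.19 (adjusted p = 0.150). Of the 19 receptors and coreceptors measured, 11 were above 0 in that comparison (47.2% of all probe sets), with a median of 0.04.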
